A study of Homo sapiens with 9 samples.

Results

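The 3 wild-type libraries of LN229, an established human glioblastoma cell line, are described here as a baseline, out of 9 libraries in the series. They were chosen by their labels (the samples with the genotype WT), and all 19356 genes of the deposited table were ranked by their level in these 3 libraries. The study knocked out ARNT2, a transcription factor of the bHLH-PAS family, with CRISPR in LN229 to learn its role in how these tumour cells divide and mature. The other 6 libraries, 3 each of the ARNT2 KO lines B3 and C4, enter no contrast below. Wild-type and knockout cells alike were kept in DMEM with 5% serum at 37 C and 5% CO2, and polyadenylated RNA was sequenced. The labels do not say that the 3 wild-type samples came from separate cultures, so the spread between them may be technical. A single line in a single medium is described, and nothing here separates LN229 from glioblastoma in general.

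Glioblastoma is the most aggressive glial brain tumour, and its cells can carry RNA programmes of several cell types, among them astrocytes, oligodendrocyte progenitors, neural stem cells and mesenchymal cells. Astrocytes are commonly recognised by the filament protein GFAP, the water channel AQP4, the folate enzyme ALDH1L1 and the glutamate transporters SLC1A2 and SLC1A3. Lines grown in serum as attached cells usually carry much RNA for intermediate filaments, actin and extracellular matrix.

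The deposited values are on a log2 scale, already scaled between libraries by the authors, and are not divided by gene length. Levels are compared between genes below only after division by length. The antilog of each value was divided by the total exon length of the gene and scaled so that the levels of a library sum to 1000000 over the 18387 genes with a known length. This length-scaled level is given in LPM, parts in 1000000, as mean ± SD of the 3 wild-type libraries or as the values of replicates 1, 2 and 3 in that order. The top 25% of genes, at or above 44.46 LPM, is called high. The mean antilog of a gene is the antilog of its mean log2 value, before the division by length. A mean antilog under 10 is called low. Read depth is unknown, because the table holds no counts. The SD of a weak gene is no measure of its precision, since the median SD falls towards the lowest log2 values.

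The median gene stood at 12.06 LPM, with 0.7877 at the lower quartile and 109.0 at the top 10%. At least 1 LPM was reached by 13530 genes, 100 LPM by 2033 and 1000 LPM by 114. The 10 highest genes took 4.80%, 4.92% and 4.85% of the summed level of replicates 1, 2 and 3, and the 100 highest took 21.5%, 22.3% and 22.0%. Protein-coding genes had a median of 16.7 LPM over 16040 genes and the 2347 genes of other biotypes a median of 1.09 LPM. A low level was found for 2894 genes, 15.0% of the table. Of protein-coding genes 28.3% were high and 10.9% were at a low level, the shares to set beside the list counts below.

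**Figure D1:**
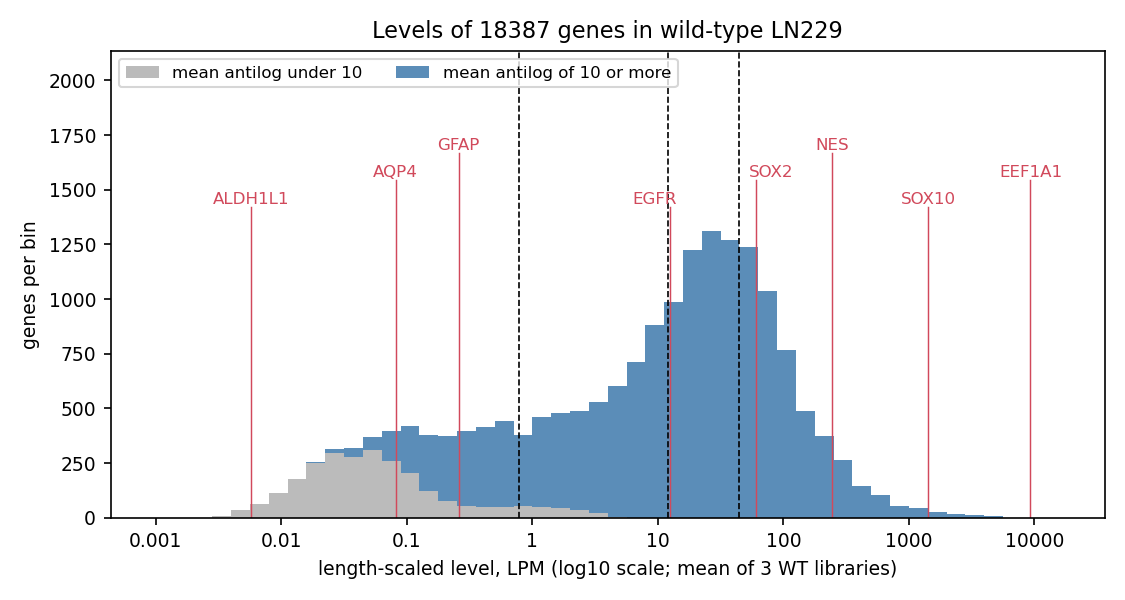
Histogram of the length-scaled level of 18387 genes in wild-type LN229 (x axis, LPM on a log10 scale, mean of 3 libraries; y axis, genes per bin), with genes of a mean antilog under 10 in grey and the others in blue. Dashed lines mark the quartiles at 0.7877, 12.06 and 44.46 LPM, and red lines place 8 named genes, from ALDH1L1 at 0.00571 to EEF1A1 at 9296 LPM.

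The promoters below belong to genes at the 2 ends of that range: the highest gene (EEF1A1), a pair of MHC class II genes (CD74 and HLA-DRB1), a pair of secreted proteins among the highest genes (SPARC and SERPINA3), and a pair of astrocyte markers near the bottom (AQP4 and ALDH1L1). Each is the 150 bases before the transcription start, 5′ to 3′ on the strand of the gene, from RefSeq on GRCh38.p14. Capitals mark the motif TATAA or its reverse complement TTATA, and the motif CCAAT or its reverse complement ATTGG. The positions are chr6:73521033-73521182, minus strand, for EEF1A1, chr5:150412911-150413060, minus strand, for CD74, chr6:32589849-32589998, minus strand, for HLA-DRB1, chr5:151686916-151687065, minus strand, for SPARC, chr14:94612241-94612390, plus strand, for SERPINA3, chr18:26865804-26865953, minus strand, for AQP4 and chr3:126180587-126180736, minus strand, for ALDH1L1.
EEF1A1: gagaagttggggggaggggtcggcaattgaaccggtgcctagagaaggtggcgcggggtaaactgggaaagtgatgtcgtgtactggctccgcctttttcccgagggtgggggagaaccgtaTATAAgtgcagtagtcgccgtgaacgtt
CD74: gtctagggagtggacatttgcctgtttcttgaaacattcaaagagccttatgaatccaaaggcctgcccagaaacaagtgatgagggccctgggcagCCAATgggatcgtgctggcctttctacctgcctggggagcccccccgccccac
HLA-DRB1: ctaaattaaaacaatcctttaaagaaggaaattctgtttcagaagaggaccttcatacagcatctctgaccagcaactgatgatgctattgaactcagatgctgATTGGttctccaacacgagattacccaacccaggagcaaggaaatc
SPARC: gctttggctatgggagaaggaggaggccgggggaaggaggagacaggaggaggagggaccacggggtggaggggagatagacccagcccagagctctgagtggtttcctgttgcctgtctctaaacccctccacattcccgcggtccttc
SERPINA3: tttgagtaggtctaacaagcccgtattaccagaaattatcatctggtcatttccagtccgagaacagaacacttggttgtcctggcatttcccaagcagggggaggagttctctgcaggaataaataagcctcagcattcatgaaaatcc
AQP4: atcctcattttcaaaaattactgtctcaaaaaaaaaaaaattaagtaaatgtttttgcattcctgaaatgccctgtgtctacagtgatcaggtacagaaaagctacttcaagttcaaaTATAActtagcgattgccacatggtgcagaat
ALDH1L1: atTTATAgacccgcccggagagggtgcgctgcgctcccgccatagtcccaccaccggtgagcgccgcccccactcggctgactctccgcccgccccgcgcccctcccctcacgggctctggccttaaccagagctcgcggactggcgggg
EEF1A1 holds TATAA 28 bases before its start, and AQP4, among the weakest genes, holds it 32 bases before its own. CD74 and HLA-DRB1 carry CCAAT or its reverse complement at 53 and 46 bases before the start. In the 250 bases before the start EEF1A1 and ALDH1L1 each hold 20 CG dinucleotides, although they stand at the top and near the bottom of the ranking. SPARC and SERPINA3 show neither motif in the printed window.

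Across genes the promoters differed with level. Among 13019 genes with both a level and a promoter in the RefSeq table, the median number of CG dinucleotides in the 250 bases before the start was 22 in the top 25%, 20 in the middle 50%, 7 in the lowest 25% and 5 in genes at a low level, against 19 over all 13019 and 11 over all 27305 promoters of the table. TATAA or TTATA occurred somewhere in those 250 bases in 28.0% of the 100 highest genes, 10.6% of the top 25%, 10.5% of the middle 50% and 24.7% of genes at a low level, against 13% of the 13019 and 19.6% of all promoters. CCAAT or ATTGG occurred in 41.0% of the 100 highest genes, 37.4% of the top 25%, 34.0% of the middle 50% and 32.7% of genes at a low level, against 34.7% of the 13019 and 33.0% of all promoters. A match is a description of letters in the sequence, and no factor was measured.

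The highest gene by length-scaled level was EEF1A1, the translation elongation factor that delivers transfer RNA to the ribosome. It stood at 8866, 9649 and 9372 LPM in the 3 libraries, on log2 values of 20.66, 20.81 and 20.75. No other gene came near it, since the next, the ribosomal protein gene RPL13A, stood at 4544, 4861 and 4726 LPM. TMSB10, an actin-binding peptide, CD74, the invariant chain of MHC class II, GAPDH, a glycolytic enzyme, and PSAP, the precursor of the lysosomal saposins, followed at means of 4574, 4549, 4484 and 4439.8 LPM. The library values of RPL13A, TMSB10, CD74, GAPDH and PSAP overlap, so their full order is not settled by these 3 libraries. Within each library RPL13A lay above TMSB10, TMSB10 above GAPDH and CD74 above PSAP. The places of CD74 and PSAP among the others changed between libraries.

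Ribosomal proteins supplied 9 of the 25 highest genes, among them RPL13A, RPS18, RPL19, RPS27, RPS6, RPL8, RPS3A and RPS2, the last of which stood at 2699 LPM at the foot of this group. The elongation factor EEF2, the RNA-binding protein YBX1 and the chaperone HSP90AB1 stood at 3832, 3062 and 3182 LPM. The iron-storage chains FTL and FTH1 stood at 3845 and 3349 LPM, and the actins ACTG1 and ACTB at 4176 and 3545 LPM. Beside these genes, which most cells carry at high levels, stood CD74, HLA-DRA, SERPINA3 and SPARC.

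SERPINA3, a secreted inhibitor of serine proteases known as an acute-phase and reactive-astrocyte gene (chr14:94612377-94624055, plus strand, GRCh38), stood at 4131, 3919 and 3825 LPM. SPARC, a secreted collagen-binding glycoprotein (chr5:151661096-151687165, minus strand), stood at 3604, 3314 and 3295 LPM. For SERPINA3 and for SPARC replicate 1 was the highest of the 3 libraries, and the SERPINA3 values lay above every SPARC value. MIR3654, annotated as a microRNA gene of 56 bases, ranked among the 25 at 2885 ± 199 LPM. It lies within CHCHD3 and within a processed pseudogene on the same strand of chromosome 7, so RNA of these 3 annotations cannot be told apart, and division by so short a length raises its level.

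MHC class II genes were high in wild-type LN229. These molecules show peptides to helper T cells and are made mainly by professional antigen-presenting cells. In a list of their chains and loading factors, chosen after the values were seen, 10 of 12 genes were in the top 25%, which by its definition holds 25% of all genes, and the list's median was 237.8 LPM against 12.06 over all genes.

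CD74 (chr5:150401637-150412929, minus strand) chaperones the class II chains, and its libraries stood at 4779.7, 4415 and 4451 LPM. HLA-DRA (chr6:32439842-32445046, plus strand), the alpha chain of HLA-DR, stood at 4392, 4099.9 and 4078 LPM. The beta chain gene HLA-DRB1 stood at 2203, 2019.8 and 1990.3 LPM, well below both, with no overlap.

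HLA-DPB1 and HLA-DPA1, the chains of HLA-DP, stood at 349 ± 9.04 LPM and 301 ± 10.4 LPM, and HLA-DMA, which helps load peptides, at 174 ± 8.18 LPM. HLA-DQB1 and HLA-DQA1 were lower at 88.00 ± 3.55 LPM and 64.3 ± 2.91 LPM. HLA-DMB and HLA-DOB, the members outside the top 25%, stood at 26.5 and 21.97 LPM. HLA-DRB1 and HLA-DRB5, at 302 LPM, are near-identical copies, so their split is uncertain. Of the factors that bind class II promoters, RFX5 stood at 111 ± 0.912 LPM and NFYA at 84.4 ± 1.94 LPM. CIITA, the co-activator that switches the class II genes on, stood at 4.38, 3.95 and 3.95 LPM, under the median of all genes in each library. This standing depends on the division by its long total exon length of 20.757 kb. Before that division its log2 values of 11.48, 11.35 and 11.34 lay above the library medians of 10.655, 10.65 and 10.651.

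Most markers of immune cells were weak beside those genes. PTPRC, the CD45 phosphatase of all white blood cells, stood at 0.0178 ± 0.000104 LPM, CD3E of T cells at 0.0405 ± 0.000228 LPM and CX3CR1 of microglia at 0.0178 ± 0.000151 LPM, each at a low level. Of 11 immune markers CD74 and HLA-DRA were in the top 25%, and the other 9 were below it. The summed level of the list, 8541 to 9198 LPM over the libraries, came almost wholly from that pair. CSF1R, CD14 and P2RY12, which mark macrophages and microglia, stood at 0.276, 0.263 and 0.237 LPM. TMEM119 of microglia stood at 1.68 ± 0.118 LPM and CD68, a lysosomal protein abundant in macrophages, at 23.96 ± 0.467 LPM, above the median of all genes.

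The astrocyte markers split. S100B, a calcium-binding protein, and VIM, the intermediate filament vimentin, were among the highest genes of the table, whereas GFAP and AQP4 were near the bottom of it. S100B stood at 1565, 1667 and 1612 LPM and VIM at 1572, 1618 and 1608 LPM, and the library values of this pair overlap. GFAP stood at 0.265, 0.256 and 0.254 LPM and AQP4 at 0.0807, 0.0828 and 0.0812 LPM. Both are weak, so the small spread between their libraries cannot be read as precision.

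SLC1A2, the main astrocyte glutamate transporter, stood at 0.0382 ± 0.00108 LPM, and ALDH1L1 at 0.00571 ± 5.78e-05 LPM, which is a low level. SLC1A3, the other transporter, stood in the middle of the range at 25.2 ± 0.964 LPM, and GJA1, a gap junction protein, was high at 60.7 ± 1.82 LPM. FABP7, a fatty-acid-binding protein of radial glia, SYNM, the filament protein synemin, NES, the neural stem cell filament nestin, and APOE, a lipid carrier, were also high at 364, 267, 244 and 208 LPM. Altogether 8 of 18 astrocyte genes were high and 2, ALDH1L1 and the membrane protein MLC1, were at a low level, against 13.9% of genes with a length. Of the 7 defining astrocyte markers, S100B and GJA1 were high and GFAP, AQP4, ALDH1L1 and SLC1A2 were each under 1 LPM. The label gives glioblastoma as the cell type, and most defining astrocyte markers go against an astrocyte profile. No DNA profile of the cells is among the sources used here, so their identity as LN229 rests on the label alone and was not tested. The cells are called by their label, with no other cell type name.

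**Figure D2:**
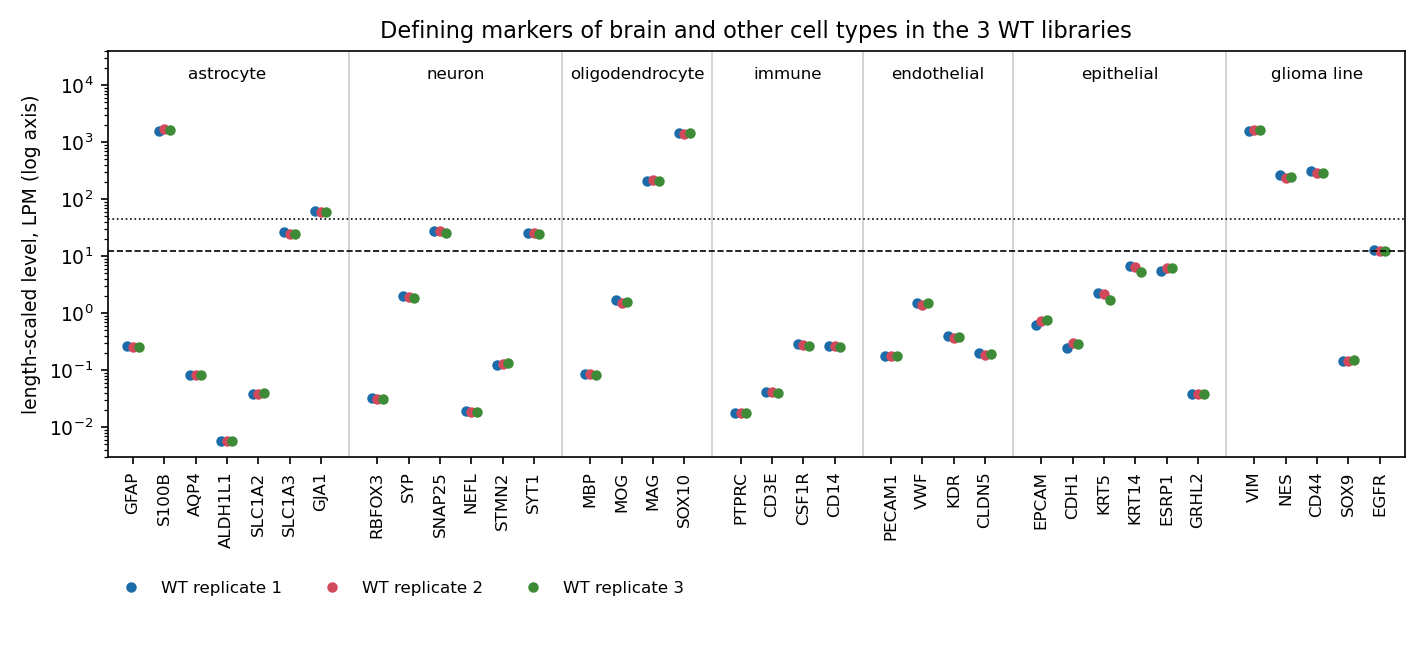
Length-scaled level (y axis, LPM, log axis) of defining markers of 6 cell types and of glioma lines in each wild-type library (points; blue, red and green for replicates 1, 2 and 3), with the median of all genes as a dashed line and the lower edge of the top 25% as a dotted line. S100B, MAG, SOX10, VIM, NES and CD44 lie far above the dotted line, and all immune, endothelial and epithelial markers shown lie below the dashed line.

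Genes of myelin-forming glia were high in part. SOX10 (chr22:37970686-37987422, minus strand), a transcription factor of oligodendrocytes, Schwann cells and melanocytes, stood at 1442, 1403 and 1426 LPM. Its log2 values were 17.36, 17.34 and 17.36, and only 67 genes ranked above it. CSPG4, the NG2 proteoglycan of glial progenitors, stood at 688, 654 and 671 LPM. SOX10 lay above CSPG4 in every library.

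CNP, a myelin enzyme, MAG, a myelin adhesion receptor, NKX2-2, a progenitor factor, and UGT8, which makes a myelin lipid, were high too, at 247, 214, 66.4 and 60.3 LPM. MBP, a structural protein of myelin, stood at 0.0865, 0.0867 and 0.0811 LPM, with no library near those values. MOG, found on the myelin surface, stood at 1.58 ± 0.0924 LPM, and GPR17, a receptor of committed progenitors, at 0.0768 ± 0.00285 LPM, a low level. Of 12 oligodendrocyte-lineage genes 7 were high.

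Schwann cells, the myelin-forming glia of nerves, share SOX10 with oligodendrocytes. In a list of Schwann cell and myelin genes chosen after the values were seen, 8 of 13 were high (61.5%, against 28.3% of protein-coding genes). The median of this list was 213.5 LPM. CDH19, a cadherin of Schwann cell precursors, stood at 345, 318 and 314 LPM, highest in replicate 1. ERBB3, the neuregulin receptor, and PMP22, a protein of peripheral myelin, stood at 448 ± 17.9 LPM and 344 ± 15.02 LPM. The members that were not high, NCAM1, PRX, L1CAM, GAP43 and MBP, stood at 12.6, 3.58, 1.78, 0.89 and 0.0848 LPM.

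Other genes of the neural crest were mixed. The crest factors SOX8 and TWIST1 were high at 133 ± 3.38 LPM and 184 ± 4.87 LPM, but PAX3 and SOX9 stood at 0.252 ± 0.004199 LPM and 0.146 ± 0.00436 LPM. Of 11 factors in this list 3 were high (27.3%, near the 28.3% of protein-coding genes). Of 11 melanocyte genes 2 were high (18.2%), GPNMB at 172 ± 8.52 LPM and EDNRB, the endothelin receptor, at 74.03 ± 2.09 LPM. The pigment genes MLANA and PMEL stood at 0.507 and 1.87 LPM, and MITF, the melanocyte factor, at 20.3 ± 0.232 LPM. These lists overlap with one another and with the oligodendrocyte list in genes such as SOX10, MAG, S100B and MBP.

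Among factors of neural stem cells and glioma, 8 of 27 genes were high (29.6%), near the 28.3% of protein-coding genes. ID3 and ID1, inhibitors of differentiation factors, stood at 273 and 263 LPM, and HES1, a Notch target, at 91.99 ± 1.54 LPM. SOX2, a factor of neural stem cells (chr3:181711924-181714436, plus strand), stood at 61.1, 59.4 and 59.6 LPM, and SOX4 and ZEB1, a factor of mesenchymal change, at 52.7 and 52.2 LPM. CD44, the hyaluronan receptor, and ITGA6, a laminin receptor subunit, stood at 295 ± 8.48 LPM and 272 ± 9.89 LPM. The surface marker PROM1 (CD133) stood at 0.178 ± 0.0124 LPM, and the chemokine receptor CXCR4 was at a low level, 0.0508 ± 0.000258 LPM.

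Neuronal genes were mostly weak. Of 18 neuron markers 2 were high, TUBB3, a neuronal tubulin, at 115 ± 2.52 LPM and MAP2, a microtubule-binding protein, at 45.3 ± 0.313 LPM, the second lying just above the edge of the top 25%. STMN2, NEFM, RBFOX3, NEFL and DCX were at a low level, from 0.129 down to 0.00939 LPM. The synaptic genes SNAP25 and SYT1 stood at 26.7 ± 0.804 LPM and 25.1 ± 0.347 LPM, above the median of all genes.

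Markers of cells outside the nervous system were weak with few exceptions. No endothelial or pericyte gene of 13 was high, PECAM1 stood at 0.176 ± 0.002104 LPM, and TEK, ERG and ABCC9 were at a low level. Of 13 epithelial genes the keratin gene KRT18 was high at 155, 169.9 and 168 LPM, whereas CDH1, the epithelial cadherin, stood at 0.246, 0.301 and 0.284 LPM and GRHL2 and CLDN3 were at a low level. None of 7 genes of other differentiated tissues was high, with ALB at 0.146 ± 0.00101 LPM and TNNT2 at 0.00545 ± 5.72e-05 LPM.

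Marker sets of the glioblastoma expression classes differed in level. Of 20 genes of the mesenchymal class 16 were high (80.0%, against 28.3% of protein-coding genes), with a median of 265.2 LPM. Of 13 genes of the proneural class 4 were high, with a median of 19.43 LPM, and of 12 genes of the classical class 3 were high, with a median of 17.20 LPM. The 6 highest mesenchymal genes were LGALS1, a galectin, at 2302, VIM at 1599, the protease inhibitor TIMP1 at 1323, fibronectin FN1 at 531, the co-activator WWTR1 (TAZ) at 424 and ANXA2, a membrane-binding annexin, at 391 LPM. CHI3L1, a secreted glycoprotein often used to name this class, stood at 0.377, 0.342 and 0.354 LPM, the lowest of the 20.

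The high proneural genes were SOX10, ERBB3, NKX2-2 and SOX2, while OLIG2 and PDGFRA stood at 28.2 ± 0.371 LPM and 33.3 ± 1.902 LPM, above the median but outside the top 25%, and DCX was at a low level. The high classical genes were NES, SMO, the Hedgehog transducer, and GAS1, at 244, 64.7 and 51.1 LPM. EGFR, whose gain defines the classical class in tumours, stood at 12.8, 12.3 and 12.1 LPM, close to the median of all genes. MEOX2 was at a low level. Of these lists the mesenchymal one also holds genes of matrix and cytoskeleton that appear again below.

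**Figure D3:**
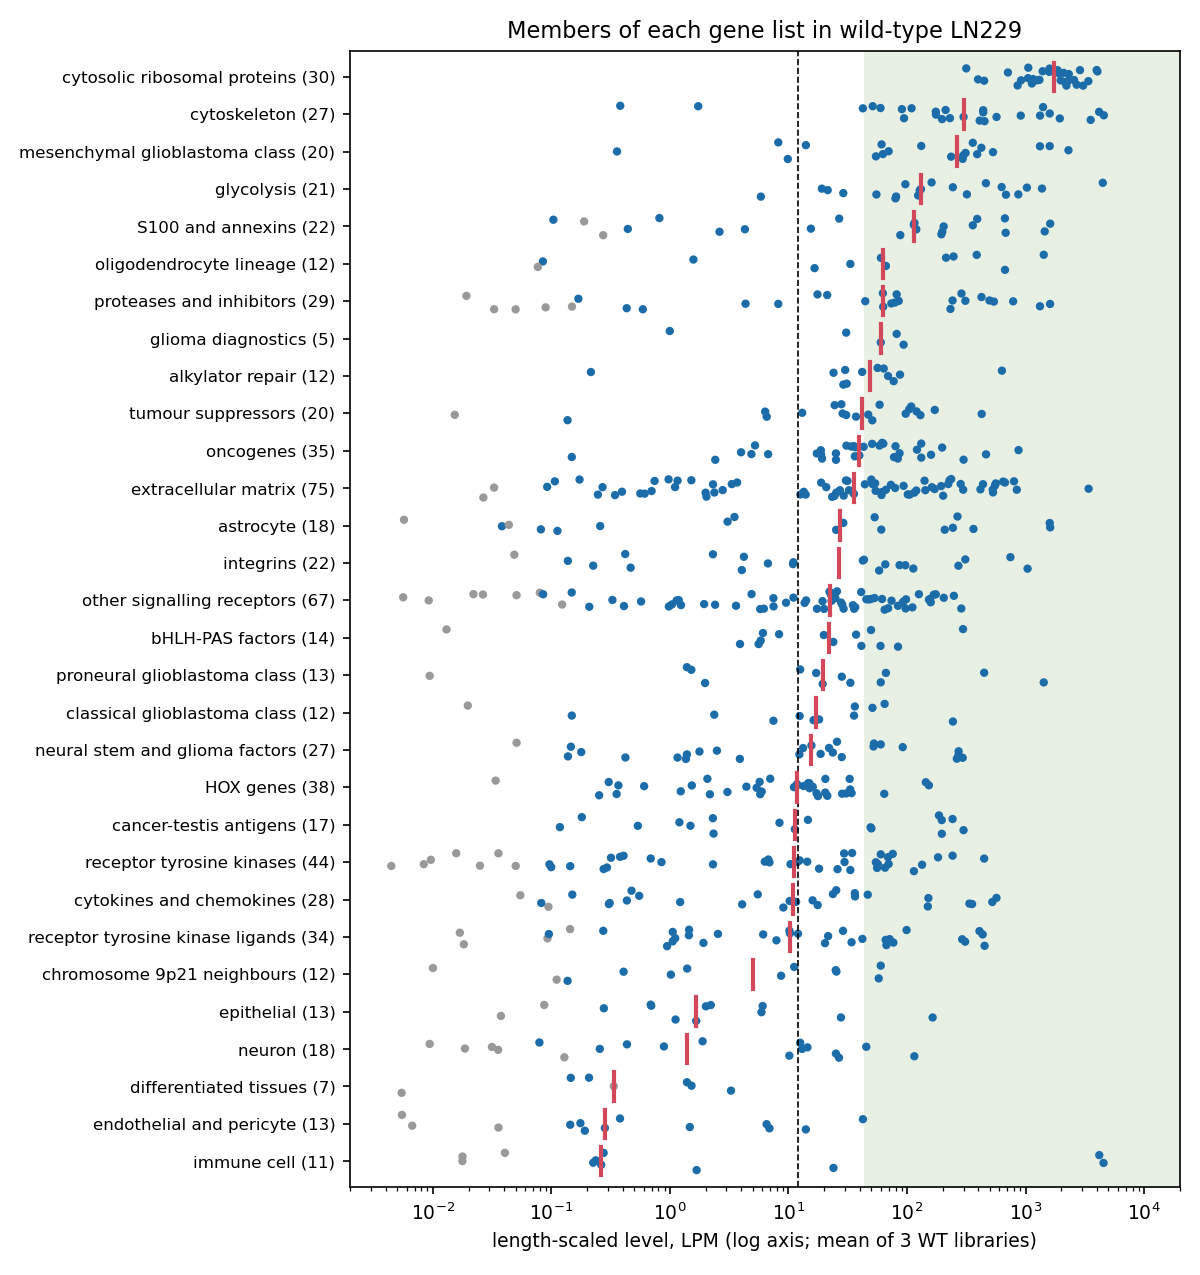
Members of 30 gene lists by length-scaled level (x axis, LPM, log axis, mean of 3 wild-type libraries), with the number of genes in parentheses. Each point is a gene (grey, mean antilog under 10), red bars are list medians, the dashed line is the median of all genes and the shaded area the top 25%, and the medians run from 0.2631 for immune cells to 1729 LPM for cytosolic ribosomal proteins.

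Over all 30 lists, 278 of 671 different genes were high (41.4%) and 53 were at a low level. Over all protein-coding genes the shares were 28.3% and 10.9%. Cytosolic ribosomal proteins had the highest median of the lists, with 30 of 30 high. Their summed level was 52021, 56420 and 55390 LPM, lowest in replicate 1.

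Receptor tyrosine kinases receive growth signals at the cell surface. Of 44 measured, 13 were high (29.5%) and 7 low, with a median of 11.15 LPM. The share of high receptors was near the 28.3% of all protein-coding genes. ERBB3 (chr12:56076799-56103505, plus strand), which lacks strong kinase activity and works in pairs with other ERBB receptors, was the highest at 467, 432 and 444 LPM. AXL, the receptor of GAS6, stood at 252, 237 and 238 LPM and the ephrin receptor EPHA2 at 189, 176 and 183 LPM. These 3 receptors did not overlap, and the high receptors were led by ERBB3 in every library.

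The ephrin receptors EPHA3 and EPHB3 stood at 134 ± 6.49 LPM and 114 ± 6.597 LPM and PTK7, a receptor of Wnt signalling without kinase activity, at 75.8 ± 3.13 LPM. MET, the receptor of HGF, FGFR1, DDR1, a collagen receptor, and ERBB2 stood at 70.02, 69.1, 65.3 and 60.1 LPM, and RYK, IGF1R and EPHB4 completed the top 25% at 56.7, 55.9 and 54.6 LPM. Among neighbours in the order of the 44 receptors, 12 of 43 pairs overlapped in their library values, MET and FGFR1 among them. Over all genes 18358 of 18386 neighbour pairs overlapped. A short list leaves wider gaps between neighbours, so its count does not show a well-resolved order.

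At a low level were MST1R, TEK, ROR2, RET, ROS1, NTRK3 and FLT4, from 0.04999 down to 0.00446 LPM. RET, the receptor chain of GDNF signalling, stood at 0.0158, 0.0155 and 0.0159 LPM. ERBB4 and KIT stood at 0.849 ± 0.0138 LPM and 0.294 ± 0.00206 LPM.

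Of 34 ligands of these receptors 10 were high (29.4%, near the 28.3% of protein-coding genes) and 4 low, with a median of 10.24 LPM. TGFA, a ligand of EGFR, was the highest at 466, 445 and 444 LPM. PTN and MDK, related heparin-binding growth factors, stood at 466, 419 and 421 and 428, 406 and 393 LPM. The libraries of TGFA overlapped with those of PTN, and those of PTN with those of MDK. PDGFA and VEGFB stood at 309 ± 4.16 LPM and 292 ± 12.6 LPM, and GDNF, a neurotrophic factor, at 99.2 ± 3.83 LPM.

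AREG, FGF18, HGF and IGF1 were at a low level, with HGF at 0.0185, 0.0182 and 0.0181 LPM and IGF1 at 0.0169, 0.0166 and 0.0172 LPM. Ligands and receptors of a pair were not always high together. HGF was low beside its receptor MET, GDNF was high beside a low RET, and TGFA was high beside EGFR near the median. NRG1, which binds ERBB3, stood at 2.77, 2.34 and 2.52 LPM, far under its receptor on this scale, and VEGFA at 20.3 ± 0.344 LPM. GAS6 stood at 6.12 ± 0.325 LPM beside its receptor AXL, which was high. PROS1, a ligand of the related receptors TYRO3 and MERTK, was high at 71.4 ± 3.34 LPM. The culture medium held serum, whose growth factors were not measured.

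**Figure D4:**
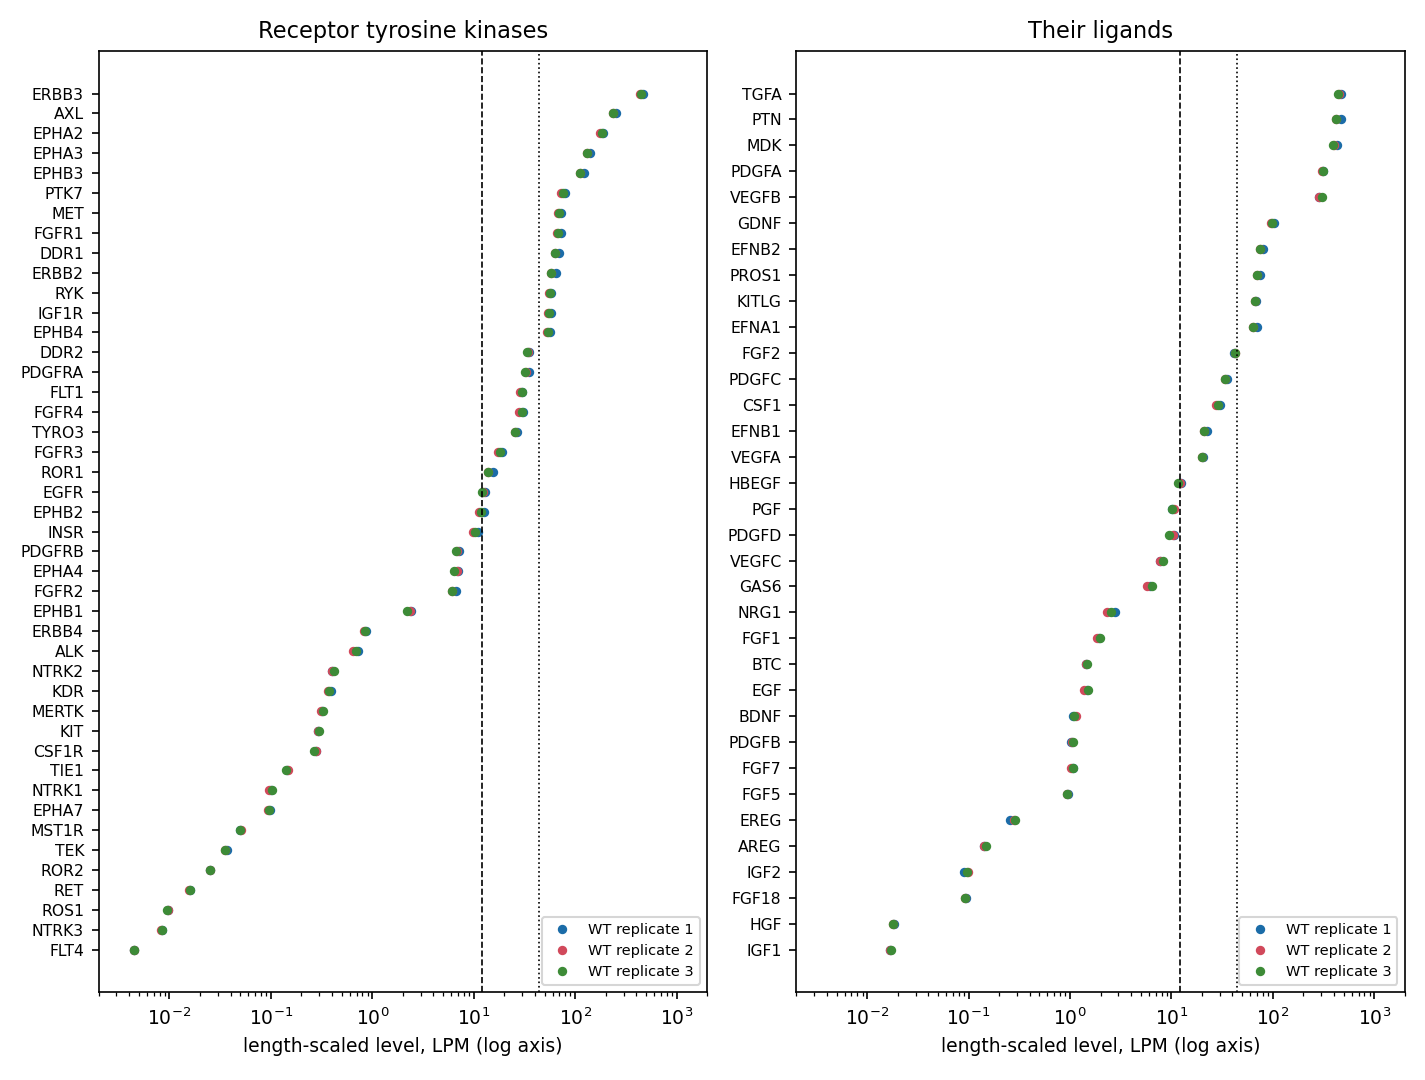
Length-scaled level (x axis, LPM, log axis) of 44 receptor tyrosine kinases (left) and 34 of their ligands (right) in each wild-type library (points by replicate), ordered by mean, with the median of all genes dashed and the edge of the top 25% dotted. ERBB3 leads the receptors at 448 and TGFA the ligands at 451 LPM, and FLT4 and IGF1 are the lowest at 0.00446 and 0.0169.

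Other receptors were described by role, and of 67 in all 22 were high (32.8%, against 28.3% of protein-coding genes) and 7 low. Of 9 TGF-beta and BMP receptors 4 were high, TGFBR2, ENG, ACVR1 and TGFBR1, led by TGFBR2 at 98.1 ± 3.74 LPM. Of 14 receptors of Notch, Wnt and Hedgehog signalling 6 were high, led by the Wnt receptor FZD7 at 302, 275 and 284 LPM, with FZD1 and FZD6 at 159 and 157 LPM. FZD1 and FZD6 overlap. Of 15 cytokine and death receptors 8 were high, led by TNFRSF10B, a receptor of the death ligand TRAIL, at 249 ± 9.64 LPM, and by IL6ST, the shared chain of the IL-6 family receptors, at 204 ± 7.699 LPM.

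Of 19 G-protein coupled receptors 4 were high (21.1%, against 28.3% of protein-coding genes). The adenosine receptor ADORA2B stood at 153 ± 5.96 LPM and the thrombin receptor F2R at 126 ± 4.62 LPM. EDNRB stood at 74.03 ± 2.09 LPM and LPAR1, a lysophosphatidic acid receptor, at 53.2 ± 1.56 LPM. ACKR3, P2RY2 and CXCR4 were at a low level. None of 10 neurotransmitter receptors was high and 4, among them GRIA3, GRIA1 and CHRNA7, were at a low level. The highest of the 10 was the kainate receptor subunit GRIK2 at 17.4 ± 0.937 LPM.

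Of 75 extracellular matrix genes 36 were high, and the list had a median of 35.62 LPM, above that of all genes but under the edge of the top 25%. Glycoproteins were led by SPARC, then by the basement membrane linker NID1 at 848, 774 and 777 LPM and the laminin chain LAMC1 at 672, 637 and 633 LPM. EMILIN1, an elastic fibre protein, THBS2, a thrombospondin, and FN1 stood at 561 ± 33.3 LPM, 552 ± 16.4 LPM and 531 ± 24.4 LPM. NID1 and LAMC1 did not overlap, whereas EMILIN1, THBS2 and FN1 did. Of 26 glycoproteins 13 were high.

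Of 22 collagens 8 were high, with COL11A1, a minor fibrillar collagen, first at 440.2, 401 and 408 LPM. COL6A2 and COL6A1 of microfibrils stood at 284 ± 9.95 LPM and 236 ± 11.6 LPM, and COL4A2 and COL4A1 of basement membranes at 194 ± 9.79 LPM and 102 ± 4.17 LPM. COL6A3, the third chain of collagen VI, stood at 0.111, 0.107 and 0.103 LPM, far under its partner chains in every library. The major fibrillar collagens were weak, with COL1A1 at 2.41, 2.97 and 2.98 LPM, COL1A2 at 0.567, 0.706 and 0.827 LPM and COL3A1 at 0.871, 1.02 and 1.02 LPM. In these 3 genes replicate 1 was the lowest library. COL10A1 was at a low level.

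Of 18 proteoglycan and hyaluronan genes 10 were high, with CSPG4, SDC4, VCAN, BGN, AGRN and HAPLN1 first, from 671 to 93.6 LPM. NCAN, the brain proteoglycan neurocan, was at a low level, 0.0267 ± 0.000257 LPM. Of 9 enzymes that fold or crosslink collagen 5 were high, led by the collagen chaperone SERPINH1 at 883, 814 and 835 LPM, and PLOD1, P4HA1, LOXL2 and PLOD2 followed at 202, 171, 141 and 119.8 LPM. LOX, the classic crosslinking enzyme, stood at 0.742 ± 0.0101 LPM. The summed level of the matrix list was 13809, 12807 and 12896 LPM, highest in replicate 1.

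Of 22 integrin subunits 9 were high. ITGB3 (chr17:47253846-47311816, plus strand), the beta chain of the vitronectin receptor, stood at 1088, 1011 and 1022 LPM, and ITGB1, the most shared beta chain, at 779.5, 726 and 732 LPM. ITGB3 lay above ITGB1 in every library. ITGAV, the alpha partner of ITGB3, stood at 321, 306 and 304 LPM, and the leukocyte subunit ITGAL was at a low level, 0.0487 ± 0.000452 LPM. ITGA6, ITGA5 and ITGA3 stood at 272, 113 and 96.8 LPM.

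Proteases of the matrix were led by MMP2, a gelatinase, at 1681, 1565 and 1586 LPM. Of 20 proteases 11 were high, among them the lysosomal cathepsins CTSD and CTSB at 786 ± 35.7 LPM and 242 ± 11.9 LPM, the plasminogen activator PLAT at 311 ± 14.2 LPM, and MMP14, which activates pro-MMP2 on the cell surface, at 233 ± 9.55 LPM. MMP9, the other gelatinase, stood at 0.593, 0.575 and 0.603 LPM, and MMP3, MMP7, MMP13 and MMP10 were at a low level. PLAU, the second plasminogen activator, stood at 0.432 ± 0.00412 LPM. The inhibitors TIMP1, TIMP3, SERPINE2, TIMP2 and CST3 were high, with TIMP1 at 1409.7, 1294 and 1267 LPM. Every TIMP1 value lay under every MMP2 value. TIMP4 was at a low level.

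Of 35 oncogenes 16 were high and none was at a low level. In growth signalling 8 of 15 were high, led by NRAS at 159.5 ± 2.26 LPM and the factor STAT3 at 132 ± 2.58 LPM, with the kinases AKT1 and SRC at 63.1 and 61.8 LPM. In the cell cycle group CDK4, which phosphorylates RB1 with cyclin D, was first at 457, 470.2 and 466 LPM, before CCND1, cyclin D1, at 298, 299 and 304 LPM. MYCN stood at 196, 197 and 201 LPM and MYC at 5.23, 5.37 and 5.08 LPM. MYCN lay above MYC by a wide margin in every library.

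AURKA, a mitotic kinase, E2F1, a factor of S-phase genes, and MDM2, a ubiquitin ligase, were also high at 86.6, 83.6 and 80.03 LPM. CCND2, cyclin D2, stood at 0.149 ± 0.01296 LPM. Of 5 survival genes 2 were high, MCL1 at 872 ± 6.03 LPM and BIRC5 at 132 ± 2.37 LPM, while BCL2 stood at 6.74 ± 0.162 LPM.

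Genes that hold back the cell cycle came next. CDKN1A, the p21 inhibitor of cyclin-dependent kinases, stood at 420.2, 427 and 432 LPM, CDKN1B (p27) at 109 ± 1.95 LPM and RB1, which binds E2F factors, at 97.4 ± 1.57 LPM. These genes were high and in that order in every library, with no overlap. CDKN2D, CDKN2B and CDKN2C, inhibitors of CDK4 and CDK6, stood at 13.1 ± 0.583 LPM, 0.137 ± 0.006796 LPM and 0.0153 ± 7.26e-05 LPM, the last at a low level. No value was found for CDKN2A in the deposited table, so it was not analysed here. RNA levels say nothing of mutations in these genes.

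Of 13 other tumour suppressors 6 were high, among them DAXX, FUBP1, STAG2, QKI and SMARCA4, from 171 to 50.98 LPM.

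Of 5 genes read in glioma diagnosis 3 were high. IDH2 and IDH1, isocitrate dehydrogenases mutated in some gliomas, stood at 93.6 ± 1.01 LPM and 81.8 ± 1.47 LPM. MTAP, a salvage enzyme next to CDKN2A, stood at 60.1 ± 0.309 LPM, ATRX, a chromatin remodeller, at 30.7 ± 1.51 LPM, and TERT, the catalytic subunit of telomerase, at 0.995, 1.01 and 0.987 LPM. IDH2, IDH1 and MTAP were the high members, and TERT was far under the others.

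The genes around CDKN2A on chromosome 9 were taken in order of position on GRCh38. MLLT3, FOCAD, HACD4, IFNB1, KLHL9, IFNA1 and IFNE come before MTAP and stood at 25.4, 25.04, 0.01002, 0.111, 57.7, 0.406 and 1.398 LPM. MTAP (chr9:21802543-21937651, plus strand) stood at 60.05, 60.4 and 59.8 LPM. CDKN2B-AS1 and CDKN2B (chr9:22002903-22009363, minus strand), which follow it, stood at 1.07, 1.02 and 0.972 and 0.129, 0.1395 and 0.142 LPM.

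DMRTA1 and ELAVL2 lie beyond and stood at 11.2 ± 0.295 LPM and 8.67 ± 0.273 LPM. CDKN2B was thus far under its neighbour MTAP in every library, and 2 of the 12 genes, MTAP and KLHL9, were high. HACD4 and IFNB1 were at a low level. CDKN2B lies opposite CDKN2B-AS1, and the sources used here do not say that strand was used in counting, so RNA of this pair cannot be told apart. DNA copy number was not measured.

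Of 12 genes for the repair of alkylated bases and mismatches 6 were high, among them the endonuclease APEX1 at 632 ± 14.6 LPM and the glycosylase MPG, ALKBH2, XRCC1 and MSH6, from 87.3 to 56.5 LPM. MLH3 stood at 0.215 ± 0.00482 LPM. No value was found for MGMT in the deposited table, so it was not analysed here.

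Of 28 cytokines and chemokines 7 were high. GDF15, a stress-induced cytokine, and LIF, an IL-6 family cytokine, stood at 581, 554 and 569.8 and 362, 351 and 349 LPM, and TGFB1 at 149.8 ± 6.54 LPM. The chemokines CXCL1 and CXCL8, which attract neutrophils, stood at 522, 528 and 523 and 339, 339.7 and 330.1 LPM, CCL2, which attracts monocytes, at 152 ± 4.59 LPM and CXCL16 at 46.6 ± 1.804 LPM. CXCL2 and CSF3 were at a low level, and IL6 stood at 0.306 ± 0.00506 LPM. CXCL1 and CXCL2 are close copies, so a split of reads between them is uncertain.

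Glycolysis was high almost throughout, with 17 of 21 genes in the top 25% and a median of 131.1 LPM. After GAPDH came ENO1, PKM, LDHB, ALDOA and TPI1, from 1377 to 629 LPM. LDHB and LDHA, the lactate dehydrogenase subunits, stood at 851, 879.7 and 878 and 459.9, 464 and 466 LPM, with LDHB above LDHA in each library. Of the glucose transporters SLC2A1 stood at 80.97 ± 3.79 LPM and SLC2A3 at 19.1 ± 0.418 LPM.

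The cytoskeleton list had 24 of 27 genes high, with a median of 300.2 LPM. After TMSB10, ACTG1 and ACTB came PFN1, an actin-binding protein, VIM and the tubulin TUBB at 1946, 1599 and 1405 LPM. The smooth muscle genes TAGLN and MYL9 stood at 1.73 ± 0.06295 LPM and 0.381 ± 0.02303 LPM, the weakest of the list, and ACTA2 at 42.4 ± 1.72 LPM lay just under the top 25%. Of 14 S100 proteins 7 were high, led by S100B and by S100A6 at 1451 ± 32.3 LPM, and S100A7 and S100A8 were at a low level. Of 8 annexins 6 were high, led by ANXA5 at 669.7 ± 1.45 LPM.

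ARNT2, the gene the study knocked out, belongs to the bHLH-PAS family, whose members bind DNA in pairs. In wild type it stood at 49.5, 49.96 and 49.7 LPM (chr15:80404350-80597937, plus strand), on log2 values of 13.56, 13.59 and 13.58, at percentile 77.14 and so within the top 25%. It fell outside the top 25% when only protein-coding genes were ranked (percentile 74.16), with the length of the longest transcript (73.84) and when only genes whose mean antilog was 10 or more were ranked (73.44). Its close relative ARNT, the common partner of HIF1A and AHR, stood at 37.03, 36.9 and 37.7 LPM, under ARNT2 in every library.

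HIF1A, the oxygen-regulated partner, was the highest of the family at 305, 296 and 289.8 LPM. The aryl hydrocarbon receptor AHR and its repressor AHRR stood at 84.00 ± 2.29 LPM and 59.8 ± 1.99 LPM. HIF3A was at a low level, 0.01303 ± 0.000111 LPM, and EPAS1 (HIF-2 alpha) stood at 19.9 ± 0.813 LPM. Of 14 family members 4 were high (28.6%, against 28.3% of protein-coding genes), ARNT2 among them. SIM2 and NPAS3, neural members that can pair with ARNT or ARNT2, stood at 5.83 and 3.902 LPM.

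Cancer-testis antigens, genes of the male germ line that many tumours also express, were partly high. Of 17 genes 7 were high: MAGEA3 at 299, 302 and 299 LPM, CTAG2 at 235, 249.6 and 242 LPM, and MAGEA6, MAGEA1, MAGEA12, MAGEA10 and PAGE2, from 197 to 49.3 LPM. MAGEA4 and PRAME stood at 0.181 ± 0.0108 LPM and 0.118 ± 0.00397 LPM. Members of the MAGEA, CTAG, PAGE and GAGE families are near-identical copies on the X chromosome, so levels of single members are uncertain.

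HOX genes give cells their position along the body axis and are largely silent in the forebrain. Of 38 measured in wild-type LN229, 32 reached 1 LPM, a level that 13530 of all 18387 genes with a length also reached. High HOX genes numbered 3 (7.89%), a share under the 25% of all genes. HOXB9 stood at 148, 156 and 154 LPM, HOXB7 at 142, 147 and 143 LPM and HOXC10 at 62.3, 64.3 and 66.3 LPM. HOXB9 and HOXB7 were close, with every HOXB9 value above every HOXB7 value, and HOXC10 lay apart.

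Genes of all 4 clusters had a level, with HOXA5 first in its cluster at 33.1 ± 0.328 LPM and HOXD9 first in its own at 34.1 ± 0.773 LPM. HOXA9 was at a low level, 0.0339 ± 0.000172 LPM, beside HOXA10 at 14.7 ± 0.187 LPM. Among neighbours in the order of the 38 genes, 14 of 37 pairs overlapped, against 18358 of 18386 over all genes, where neighbours lie closer together.

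**Figure D5:**
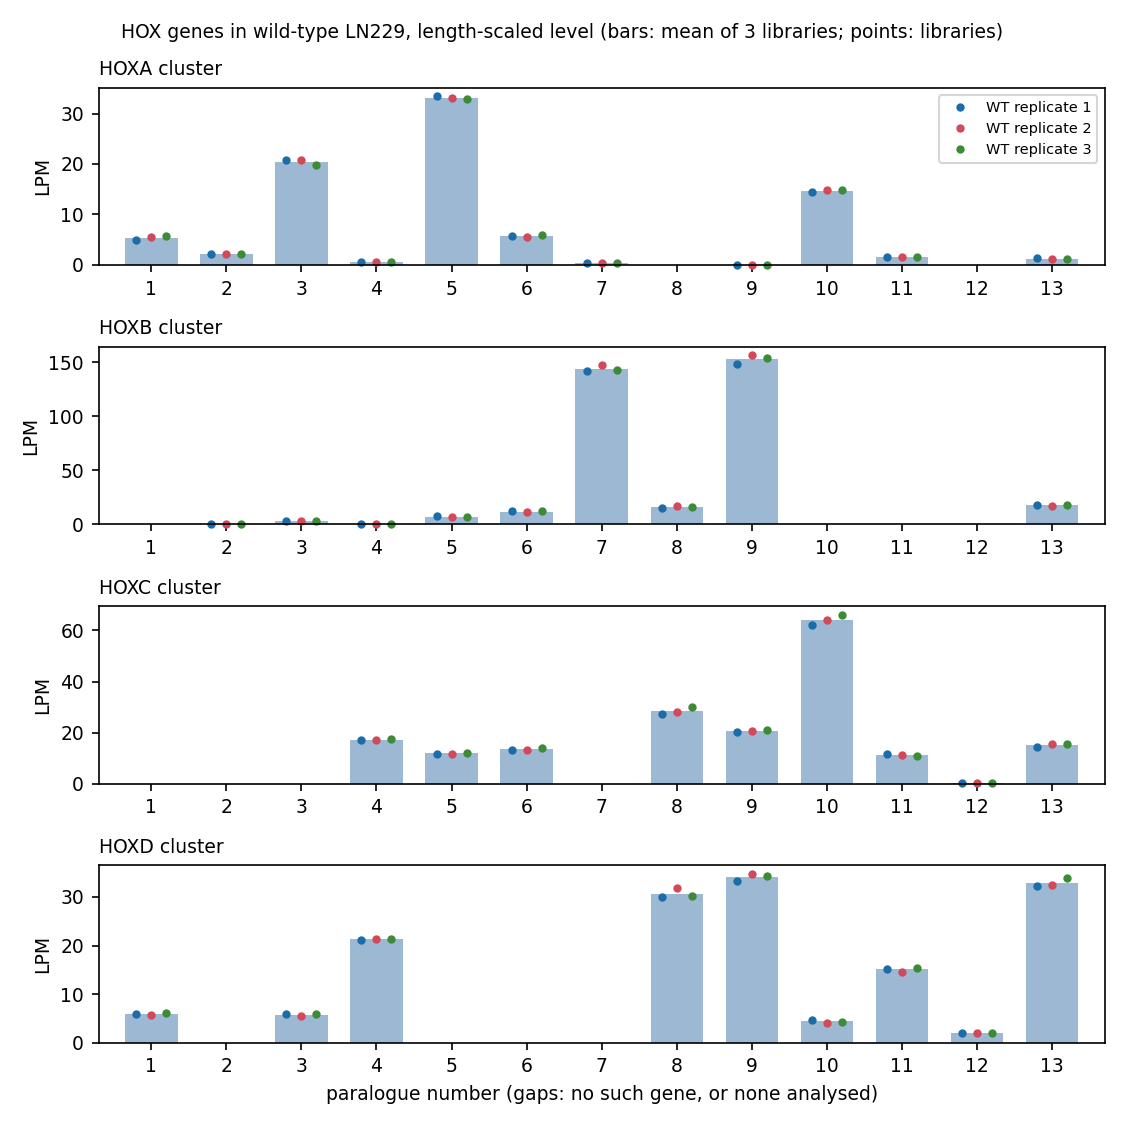
Length-scaled level of the HOX genes by cluster (x axis, paralogue number; y axis, LPM, linear, with a scale of its own in each panel; bars, mean of 3 wild-type libraries; points, libraries). HOXB7 and HOXB9 stand out at 144 and 153 LPM, HOXC10 follows at 64.3, and the highest HOXA and HOXD genes stay at 33.1 and 34.1.

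The libraries differed little from one another. Across the 16462 genes whose mean antilog was 10 or more, the SD of the difference between a pair of libraries was 0.0730 on the log2 scale for replicates 1 and 2, 0.0688 for 1 and 3 and 0.0552 for 2 and 3. The 10 genes of at least median value with the widest range were NEAT1, GOLGA8B, LCN2, XIST, GAL3ST4, RPS6, AATK, GRIA2, PABPC1L and MGP. Replicate 1 was the highest library in all of them except LCN2 and RPS6, where it was the lowest. NEAT1, a nuclear noncoding RNA, had log2 values of 14.64, 14.31 and 14.41, LCN2, an iron-binding secreted protein, 12.66, 12.94 and 12.68 and RPS6 17.84, 18.10 and 18.06.

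A range of at least 0.5 on the log2 scale was found in 5 genes, 0.0258% of the table: AFP, CLDN6, COL1A2, DLK1 and KRT19, all below the median of all genes. AFP, the fetal counterpart of serum albumin, had log2 values of 7.70, 8.10 and 9.06. DLK1, a Notch-like surface protein, had 5.74, 6.50 and 5.997. Replicate 1 was the lowest library in each of the 5. The spread cannot be read for weak genes, since the median SD between libraries fell from 0.0516 at log2 values of 8 to 10 to 0.0074 at values under 2.

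Genes at the bottom of the ranking were listed with values above 0. The 93 genes with the lowest mean over the 9 libraries, 0.0027 on the log2 scale, shared 6 different rows of values, and the next 187 shared 68. In every row of both sets at least 1 wild-type library was raised. No source used here says whether the authors kept genes by their signal in wild type, and this was not tested, so the share of genes at a low level holds for the deposited table and not for all annotated genes. Very little RNA and none cannot be told apart at a low level, since no limit of detection can be given without counts. The low level was met by 1756 protein-coding genes, 10.9% of them, and by 34.3% of the genes of other biotypes.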

How the data were processed

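Polyadenylated RNA of LN229 cells was sequenced by the authors in 9 libraries, of which the 3 wild-type ones are used here. The submitters' processing notes name DESeq2 (with no version), Subread 1.6.3, STAR 2.7.3a and build hg38, and give them no role or order. The deposited log2 values were scaled between libraries by the authors. They look like the output of a regularized-log transform, which the labels do not name: values of weak genes lie close to their mean over all 9 libraries, so wild-type values of weak genes also carry information from the knockout libraries. Of 19356 symbols, 18387 (95.0%) were given an exon length from GENCODE 29 on GRCh38, 17793 by name and 594 by another symbol of the same gene. Another 25 symbols are written as dates, as spreadsheet software does, and have no length. Promoters are from the RefSeq table on GRCh38.p14, whose primary sequence is that of hg38.

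Antilogs were divided by exon length and scaled to a sum of 1000000 per library (LPM) with Python 3.11.15, pandas 2.3.3 and numpy 2.4.6, and figures were drawn with matplotlib 3.10.9. The scripts were tested on simulated data. No test was made, because no contrast between groups is part of the question. The members and the 30 gene lists, with 705 different genes, were chosen with earlier results of these data known. Of these genes 671 have a value. The genes named were the 25 highest, up to 6 high members and the members at a low level of each list and role, every gene of 3 short lists, the cell type markers, the 10 widest ranges and ARNT2. The neural crest, MHC class II and liver lists, and other genes named from the middle or lower part of the range, were chosen after their values were seen. No interval is given, because it would need counts, and with 3 libraries an SD is itself imprecise. Alternatives were other scalings, lengths, thresholds and biotypes, and leaving out each library. A gene named without a value was not analysed here. Some members of the lists are counted but not reported here by name.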

Additional observations from a re-analysis of the deposited data

How the results depend on the processing

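Of 35 counts and shares, 25 stayed within 1.5 times their value (counts) or within 1 SD between libraries (shares) under each alternative that was run, and no list count moved when a single library was left out by more than 1 gene. With protein-coding genes only, genes at a low level numbered 1756 in place of 2894, neuron markers in the top 25% 1 in place of 2, and the share of the 10 highest genes was 4.961% in place of 4.854%. With the length of the longest transcript, high members numbered 1 for neuron markers, 1 in place of 0 for endothelial and pericyte genes, 2 in place of 1 for epithelial genes and 1 in place of 2 for the chromosome 9 neighbours, and the 10 and 100 highest genes took 4.933% and 23.87% in place of 4.854% and 21.96%. With levels not divided by length, 7 bHLH-PAS genes in place of 4 and 1 HOX gene in place of 3 were high, and the shares were 4.324% and 16.89%. A low level defined as a mean antilog under 5 or under 50 gave 1903 or 5032 genes. Ranking only genes whose mean antilog was 10 or more left 1 neuron marker high. Genes with a wide range numbered 72 at 0.25 and 1 at 1 in place of 5 at 0.5. Leaving out a library in turn gave 1 to 3 such genes (1 without replicate 1 and 3 without replicate 2 or replicate 3), 2893 to 2899 genes at a low level, 277 to 279 high list members, and shares of 4.82% to 4.88% and 21.8% to 22.2% for the 10 and 100 highest genes. The wide-range genes thus rest on replicate 1 in part. No paired analysis was possible because the results come from no test between groups. Depth is unknown, and the moderated values of weak genes limit what can be said of their level and of their spread.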

Other observations

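Genes of liver and yolk sac products were weak in wild-type LN229 apart from transferrin. TF, which carries iron in serum and is also made by oligodendrocytes, was in the top 25% at 147, 136 and 135 LPM, the single high member of 16 genes in a list chosen after the values were seen. AFP stood at 2.03, 2.63 and 5.18 LPM, SERPINA1, the main plasma protease inhibitor, at 3.22, 3.49 and 3.91 LPM and FGB, a fibrinogen chain, at 0.916, 1.05 and 1.21 LPM. In AFP, SERPINA1 and FGB replicate 1 was the lowest library and replicate 3 the highest. The list had a median of 1.083 LPM against 12.06 over all genes.

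The share of protein-coding genes in the top 25% differed by chromosome, from 20.1% of 229 genes on chromosome 18 to 38.4% of 435 genes on chromosome 20, with 33.6% of 745 on chromosome 5 and 28.3% over all protein-coding genes. DNA copy number was not measured, and its part in these shares was not tested.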
